A study of Homo sapiens and Mus musculus with 13 samples.

Results

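The 9 genes described here encode the receptors that thrombin and trypsin-like proteases cleave (F2R, F2RL1 and F2RL2), tissue factor and its inhibitor (F3 and TFPI), and the plasminogen activators with their cell surface receptor and an inhibitor (PLAU, PLAT, PLAUR and SERPINE2). They were chosen by symbol from a table of 24523 gene symbols. The rule holds no measured value, but earlier results of these data were known when it was made. All 9 were found once in the table, and all 9 were among the 12636 symbols with a mean of at least 0.5 FPKM (fragments scaled by transcript length and by the size of the library) over the 7 libraries, which were the genes tested. The libraries were made from MDA-MB-231, a triple-negative, mesenchymal-like human breast cancer cell line, to ask how knockdown of TRIM11, a ubiquitin E3 ligase, and of KDM5C, a histone H3 lysine demethylase, changes gene expression when made alone or together. Every line carried Cas9 and guide RNA from lentivirus. Control had a guide to GFP (1 library), TRIM11-KD1 and TRIM11-KD2 had TRIM11 guides 1 and 2, and KDM5C-KD1 and KDM5C-KD2 had KDM5C guides 1 and 2. The double knockdown lines DKD1 and DKD2 had TRIM11 guides 1 and 2, each together with KDM5C guide 2, so KDM5C-KD2, DKD1 and DKD2 share a KDM5C guide. The lines were drug-selected pools, not clones, with 1 library each, so the spread between 2 lines of a knockdown holds the difference between guides as well as that between cultures.

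Protease-activated receptors are G protein-coupled receptors that carry their own ligand. A protease cuts the extracellular N terminus, and the new end binds the same receptor. F2R (PAR1) and F2RL2 (PAR3) are cut by thrombin and F2RL1 (PAR2) by trypsin-like proteases and by the complex of tissue factor with factor VIIa. Tissue factor starts coagulation, and TFPI inhibits its complex with factor VIIa. PLAU (urokinase) and PLAT (tissue-type activator) turn plasminogen into plasmin, PLAUR holds urokinase on the cell surface, and SERPINE2 inhibits thrombin and both activators. In breast cancer cells the receptors and urokinase are known for roles in migration and invasion.

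The KDM5C transcript was lower in the 4 libraries with a KDM5C guide, at 18.8 to 22.7 FPKM, than in the 3 without, at 28.4 to 30.3 FPKM. TRIM11 was not lower in all 4 libraries with a TRIM11 guide. It was at 13.4 FPKM in the library labelled TRIM11-KD1 and 16.1 in the library labelled DKD1, against 12.6 to 14.2 in the 3 libraries without such a guide. In TRIM11-KD2 and DKD2 it was at 10.6 and 9.38 FPKM. Loss of the proteins was checked by western blot in the study, and directions for TRIM11 below rest on the labels. The low values of the table keep the steps of whole reads, from which the relative depth of the libraries was between 0.735 (KDM5C-KD2) and 1.12 (TRIM11-KD1) of that of Control, roughly 13300000 to 20400000 fragments. VIM, CD44 and AXL were high (188 to 1309 FPKM) and ESR1 and PGR at or near 0, while SPARC, another mesenchymal marker, was at 0.129 to 0.612 FPKM. Of the other markers listed as low or absent in this line, ERBB3 was at 3.66 to 7.87 FPKM, GATA3 at 4.41 to 8.92 and CDH1 at 0.615 to 1.98. EPCAM, an epithelial marker, was at 4.03 to 6.77 FPKM in the 3 libraries without a KDM5C guide and at 10.3 to 12.3 in the 4 with one, and its part in the results was not tested. PTPRC, PECAM1 and COL1A1, markers of leukocytes, endothelium and fibroblasts, were at most at 1.90 FPKM.

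The 3 receptor genes lie together within 220 kb of chromosome 5 in hg19. F2RL2 (chr5:75911307-75919238, minus strand) lies within IQGAP2, a gene on the other strand, which was at most at 0.242 FPKM. F2R (chr5:76011951-76031595) and F2RL1 (chr5:76114758-76131140) follow on the plus strand. F3 is at chr1:94994729-95007315, TFPI at chr2:188328957-188430487, PLAU at chr10:75668935-75677254, PLAUR at chr19:44150247-44174699 and SERPINE2 at chr2:224839762-224904035. PLAU overlaps C10orf55 on the other strand, which was at most at 0.529 FPKM. The libraries did not keep strand, so reads from a gene and from an antisense neighbour cannot be told apart.

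The promoters of 4 genes are shown. F2RL1 and PLAUR had an unadjusted limma p under 0.05 between knockdowns, though not an adjusted one. F3 and F2RL2 were added because, with PLAUR, they hold the AP-1 motif TGANTCA, the binding sequence of FOS and JUN proteins. The windows shown were thus picked in part for the motif. PLAU also had an unadjusted p under 0.05, but its windows, which hold no TGANTCA, are not shown. Each window runs 5′ to 3′ from 250 bases before to 50 bases after a RefSeq start (GRCh38.p14) and was placed on hg19 by an exact match. Capitals mark TGANTCA, which reads the same on both strands.
F2RL1, chr5:76114605-76114904, plus strand: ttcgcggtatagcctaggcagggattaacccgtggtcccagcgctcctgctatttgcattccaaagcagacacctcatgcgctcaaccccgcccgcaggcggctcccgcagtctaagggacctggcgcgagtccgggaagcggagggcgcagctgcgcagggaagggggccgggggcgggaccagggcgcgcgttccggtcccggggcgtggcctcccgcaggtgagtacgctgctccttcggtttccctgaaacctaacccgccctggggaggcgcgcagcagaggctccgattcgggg
PLAUR, chr19:44174272-44174571, minus strand: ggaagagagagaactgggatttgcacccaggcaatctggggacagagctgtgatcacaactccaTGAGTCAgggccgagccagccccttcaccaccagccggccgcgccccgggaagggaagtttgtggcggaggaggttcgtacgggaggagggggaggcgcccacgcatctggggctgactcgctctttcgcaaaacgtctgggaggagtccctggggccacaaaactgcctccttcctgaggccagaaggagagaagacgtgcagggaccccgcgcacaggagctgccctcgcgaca
F3, chr1:95007266-95007565, minus strand: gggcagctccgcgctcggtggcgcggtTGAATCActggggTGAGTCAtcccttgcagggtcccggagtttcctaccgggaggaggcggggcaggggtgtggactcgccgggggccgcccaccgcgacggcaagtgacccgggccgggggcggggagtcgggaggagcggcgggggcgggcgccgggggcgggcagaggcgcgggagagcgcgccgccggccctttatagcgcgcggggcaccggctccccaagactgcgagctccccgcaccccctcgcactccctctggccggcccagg
F2RL2, chr5:75919179-75919478, minus strand: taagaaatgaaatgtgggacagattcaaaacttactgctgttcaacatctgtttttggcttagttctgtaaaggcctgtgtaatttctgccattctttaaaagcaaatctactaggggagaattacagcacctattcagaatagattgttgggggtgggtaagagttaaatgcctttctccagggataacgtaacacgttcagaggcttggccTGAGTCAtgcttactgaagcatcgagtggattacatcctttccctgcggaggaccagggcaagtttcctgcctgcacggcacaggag

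Windows were found for 7 of the 9 genes, 9 windows in all, and none for F2R and PLAT. The motif was in 3 of the 9 windows, and in 7.71% of all 35116 windows of the table. Its first match began 223 bases before the start of F3, where a second match follows, 186 bases before that of PLAUR and 37 bases before that of F2RL2. The F2RL1 window holds no TGANTCA and 3 copies of GGGCGG, the GC box bound by SP1 (both strands searched). A GC box was in 5 of the 9 windows and in 45.0% of all windows. These are matches of letters and not measured binding sites.

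By mean level over the 7 libraries, F3 was the most abundant of the 9 at 664 FPKM, above 99.6% of all symbols. F2RL1 (96.4), TFPI (93.7), PLAU (91.2) and PLAT (85.4) followed with overlapping ranges, then PLAUR (54.6) and F2R (36.6). SERPINE2 (6.12) and F2RL2 (3.01) were the lowest. FPKM is scaled by transcript length, so these levels can be compared between genes. The genes differed more in how far they varied. PLAT spanned 11.5-fold between its lowest and highest library, F2RL2 6.32-fold, F2RL1 5.51-fold, PLAU 4.78-fold and SERPINE2 3.11-fold, while PLAUR, F2R, F3 and TFPI spanned 1.43- to 1.74-fold. KDM5C-KD2 was the lowest library for PLAU, PLAUR and PLAT and the highest for F2R and F2RL1. In bulk RNA a change in the share of cells that make a transcript and a change per cell cannot be told apart.

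**Figure D1:**
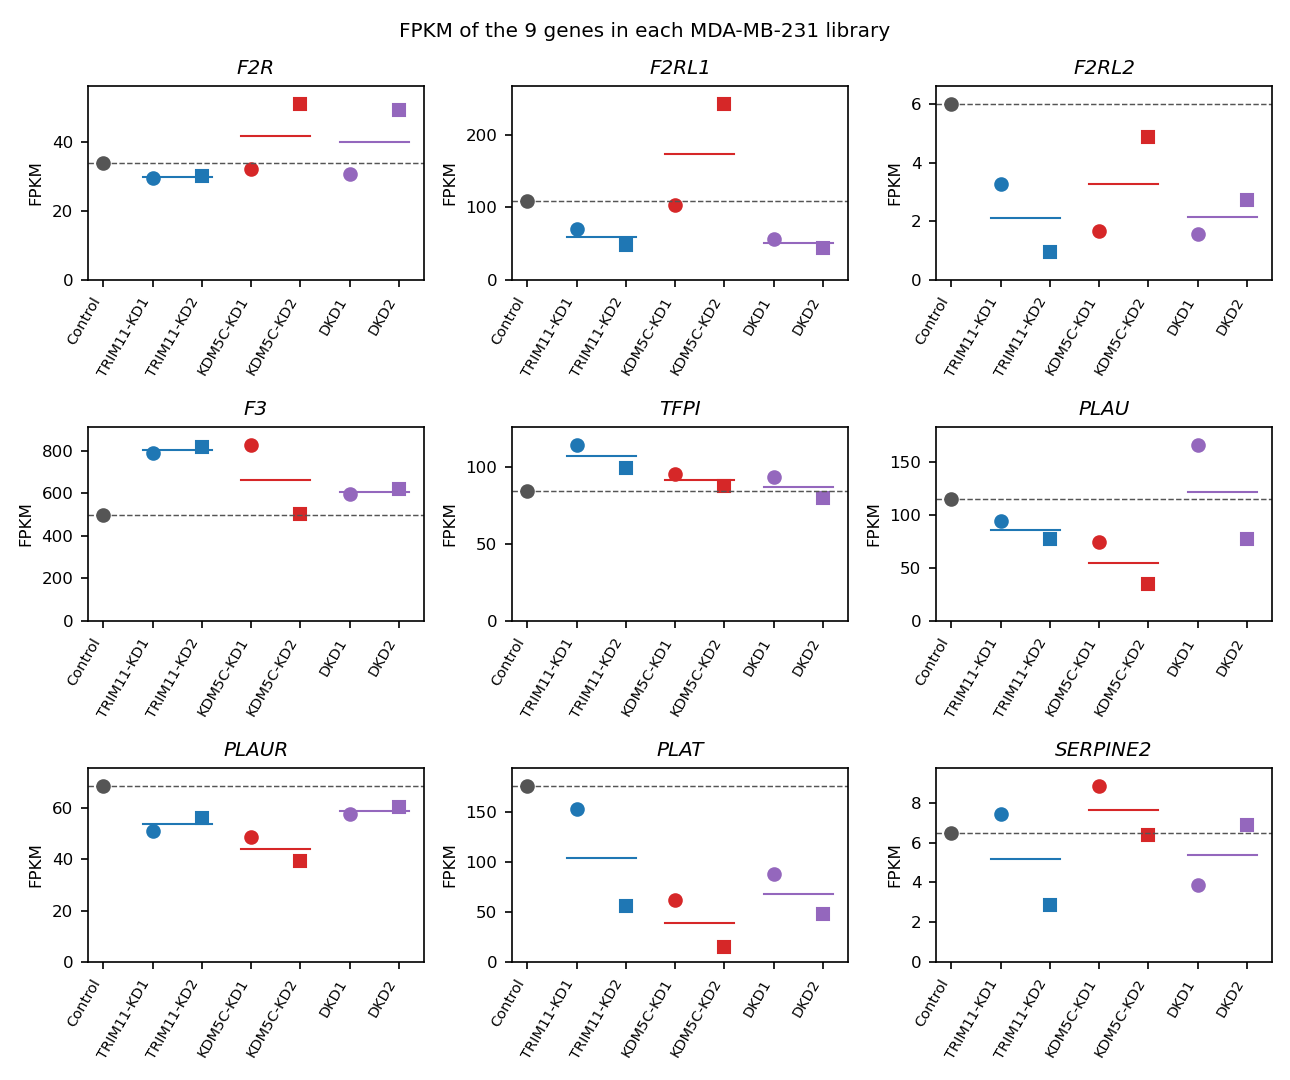
FPKM of each gene (y axis, from 0) in the 7 libraries (x axis). Circles are Control and lines numbered 1, squares lines numbered 2, solid bars the mean of 2 lines and the dashed line the Control library. F2RL1 is between 44.1 and 69.9 FPKM in the 4 libraries with a TRIM11 guide and between 103 and 243 in the other 3.

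F2RL1 had the lowest unadjusted p of the 9 in 3 of the 5 limma comparisons, and its level went with the TRIM11 guide. Its level, with lines 1 and 2 of each knockdown in that order here and below, was 109 FPKM in Control, 103 and 243 in KDM5C-KD, 69.9 and 48.8 in TRIM11-KD, and 56.8 and 44.1 in DKD. All 4 libraries with a TRIM11 guide were below all 3 without (exact two-sided permutation over libraries, p = 0.0571, which is the lowest possible for 4 against 3). The permutation treated the libraries as independent, although the 4 carry only TRIM11 guides 1 and 2, and KDM5C-KD2, DKD1 and DKD2 share a KDM5C guide. F2RL1 was the single member without overlap in this split, 1 of 9, where 8.75% of all genes tested had none in either direction. In the additive limma model, in which each guide is a term, the TRIM11 guide went with a log2 fold change of -1.34 (SE 0.32, 95% interval -2.09 to -0.59, unadjusted p = 0.00379), and the KDM5C guide with 0.08 (SE 0.32, -0.67 to 0.83). Adjusted over all genes, the p of the TRIM11 guide was 0.448. The model assumes no interaction of the guides. Its KDM5C guide term pools 0.53 for KDM5C-KD against the 1 Control library (limma over all 7 libraries) and -0.22 for DKD against TRIM11-KD. The study itself picked F2RL1 from these libraries as a gene of cell migration, so its difference is not independent evidence.

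KDM5C-KD was higher than DKD in F2RL1 by 1.64 on the log2 scale (SE 0.41, interval 0.65 to 2.63, unadjusted p = 0.00655, limma adjusted p = 0.379), and higher than TRIM11-KD by 1.42 (SE 0.41, 0.43 to 2.41, unadjusted p = 0.0124, adjusted p = 0.494). Among lines with the same KDM5C guide, KDM5C-KD2 was 4.28-fold above DKD1 and 5.51-fold above DKD2. Both DKD lines were close to the TRIM11-KD lines with the same TRIM11 guide, at 0.812 and 0.904 of their level. The difference between DKD and TRIM11-KD was -0.22 (interval -1.21 to 0.77). The size of the differences from KDM5C-KD rests in part on KDM5C-KD2, the shallowest library, which was 2.36-fold above KDM5C-KD1. Without it the log2 differences were 1.03 from DKD (unadjusted p = 0.0152, adjusted p = 0.913) and 0.81 from TRIM11-KD (unadjusted p = 0.035, adjusted p = 1), and the TRIM11 guide effect was -0.96 (unadjusted p = 0.00142, adjusted p = 0.784). Without TRIM11-KD2 the difference of KDM5C-KD from TRIM11-KD was 1.17 (unadjusted p = 0.0735). The low F2RL1 levels include the libraries labelled TRIM11-KD1 and DKD1, in which the TRIM11 transcript was not lower.

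F2R was near 30 FPKM in 5 libraries and near 50 in the other 2. It was at 33.8 FPKM in Control, 29.5 and 30.01 in the TRIM11-KD lines 1 and 2, 32.1 and 51.0 in the KDM5C-KD lines, and 30.6 and 49.1 in the DKD lines. The 2 high libraries, KDM5C-KD2 and DKD2, share KDM5C guide 2 with DKD1, which was not high. No comparison of groups gave an unadjusted p under 0.05 for F2R, and the KDM5C guide effect was 0.32 (SE 0.21, interval -0.16 to 0.81).

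F2RL2 was lower than Control in all 6 knockdown lines. It was at 6.01 FPKM in Control, 3.29 and 0.950 in the TRIM11-KD lines, 1.67 and 4.86 in the KDM5C-KD lines and 1.56 and 2.73 in the DKD lines. At these levels the values stand for roughly 51 (TRIM11-KD2) to 371 (Control) fragments, taking the length of the canonical transcript. The 2 lines of TRIM11-KD differed by 3.46-fold and those of KDM5C-KD by 2.91-fold, and no limma comparison of F2RL2 had an unadjusted p under 0.05. Its TRIM11 guide effect was -0.72 (SE 0.40, interval -1.66 to 0.21).

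F2RL3 (PAR4), the fourth receptor, was at or below 0.189 FPKM in every library, near or under the 0.147 to 0.225 FPKM that 3 fragments on a 1 kb transcript make. The other genes near the receptor cluster, within 300 kb on either side, were AGGF1 at 8.39 to 10.7 FPKM, ZBED3 at 0.655 to 2.72 and others at most at 0.242. AGGF1 was at 10.04 and 10.7 FPKM in KDM5C-KD and 10.3 and 8.98 in DKD.

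By Pearson correlation of log2(FPKM + 1) over the 7 libraries, among genes with a mean of at least 5 FPKM, the profile most like that of F2RL1 was RHOT2 (r = 0.992), followed by OGFOD3 (0.991) and FGFR1OP2 (0.989). RHOT2 ranged between 21.8 and 32.2 FPKM and so followed the order of F2RL1 over a much smaller span. The nearest profiles to F2R were RPA3 (0.964), LASP1 (0.963) and AATF (0.960), and to F2RL2 PFN2 (0.991), SLC38A9 (0.982) and GTF2A1 (0.981). With 7 libraries and 8791 genes searched, r was at least 0.9 for 207 genes for F2RL1, 72 for F2R and 25 for F2RL2, and the values are a description of these libraries.

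F3, tissue factor, was above its Control level by up to 1.67-fold in the knockdown lines, and level with it in KDM5C-KD2. It was at 498 FPKM in Control, 788 and 816 in TRIM11-KD, 829 and 501 in KDM5C-KD, and 596 and 621 in DKD. Both TRIM11-KD lines were past 1.5-fold at 1.58 and 1.64 times Control. KDM5C-KD1 was at 1.67 times Control and KDM5C-KD2 at 1.01 times, and the guide and the culture cannot be told apart with 1 library each. DKD against TRIM11-KD was -0.40 (SE 0.24, interval -0.97 to 0.18, unadjusted p = 0.142).

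TFPI varied least of the 9. Its level was 84.5 FPKM in Control, 115 and 99.8 in TRIM11-KD, 95.3 and 87.8 in KDM5C-KD and 93.7 and 80.1 in DKD. DKD was below TRIM11-KD by a log2 difference of -0.30 (SE 0.13, interval -0.63 to 0.02, unadjusted p = 0.064), the lowest p of any member in that comparison. The ratio of F3 to TFPI, in FPKM, was 5.71 (KDM5C-KD2) to 8.70 (KDM5C-KD1), with 5.89 in Control.

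PLAU and PLAUR, the activator and its receptor, were both lower in KDM5C-KD than in DKD. PLAU was at 115 FPKM in Control, 94.0 and 76.8 in TRIM11-KD, 74.6 and 34.7 in KDM5C-KD and 166 and 76.8 in DKD. The log2 difference of KDM5C-KD from DKD was -1.13 (SE 0.46, interval -2.26 to -0.01, unadjusted p = 0.0482, limma adjusted p = 0.427). KDM5C-KD1 and DKD2 were close to each other, and the difference rested on KDM5C-KD2 and DKD1. Without KDM5C-KD2 the difference was -0.59 (unadjusted p = 0.266), and without DKD1 -0.58 (unadjusted p = 0.235).

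PLAUR was highest in Control and lowest in KDM5C-KD. It was at 68.8 FPKM in Control, 51.1 and 56.4 in TRIM11-KD, 48.6 and 39.5 in KDM5C-KD and 57.7 and 60.3 in DKD. KDM5C-KD was below DKD by a log2 difference of -0.42 (SE 0.14, interval -0.75 to -0.09, unadjusted p = 0.021, limma adjusted p = 0.388). Leaving out any of KDM5C-KD2, DKD1 and DKD2 gave unadjusted p-values of 0.0969, 0.0532 and 0.083 at differences of -0.27, -0.45 and -0.39. The interaction of the guides, added after the data were seen, was 0.77 for PLAUR (SE 0.22, interval 0.25 to 1.30, unadjusted p = 0.0112, adjusted p = 0.879). PLAUR was the 1 member of 9 with an unadjusted p under 0.05 for this term, beside 5.49% of all genes. This term rests on the single Control library, the highest for PLAUR, which has no replicate and was assumed to vary like the other groups.

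PLAT (chr8:42032236-42065227 in hg19) had the widest range of the 9 and was highest in Control. It was at 176 FPKM in Control, 152 and 55.5 in TRIM11-KD, 62.3 and 15.4 in KDM5C-KD and 87.8 and 48.4 in DKD. KDM5C-KD2 was 11.5-fold below Control and 4.05-fold below KDM5C-KD1. The KDM5C guide effect was -1.28 (SE 0.64, interval -2.78 to 0.22, unadjusted p = 0.0838), and the difference of KDM5C-KD from TRIM11-KD -1.53 (SE 0.74, interval -3.34 to 0.28, unadjusted p = 0.0839). Both intervals include 0. The guide effect pools -2.46 for KDM5C-KD against the 1 Control library (limma over all 7 libraries) and -0.49 for DKD against TRIM11-KD. The guide effect and the difference from TRIM11-KD depended on single libraries. Without Control, the guide effect is the same quantity as the difference of DKD from TRIM11-KD. The guide effect was -0.49 without Control, -0.82 without KDM5C-KD2 and -1.84 without TRIM11-KD2 (unadjusted p = 0.0182, limma adjusted p = 0.374), and it also passed 0.05 without DKD1, at -1.69 (unadjusted p = 0.0401, adjusted p = 0.477). The difference from TRIM11-KD was -0.56 without KDM5C-KD2 and -0.81 without TRIM11-KD1, and it passed 0.05 at -2.25 without TRIM11-KD2 (unadjusted p = 0.044, adjusted p = 0.833) and at -2.51 without KDM5C-KD1 (unadjusted p = 0.0157, adjusted p = 0.211). The sum of the plasminogen activators PLAU and PLAT was at 291 FPKM in Control, 246 and 132 in TRIM11-KD, 137 and 50.1 in KDM5C-KD, and 254 and 125 in DKD.

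SERPINE2 had no unadjusted limma p under 0.05 in the main fits, though it passed 0.05 for the TRIM11 guide without TRIM11-KD1. It was at 6.50 FPKM in Control, 7.46 and 2.85 in TRIM11-KD, 8.87 and 6.37 in KDM5C-KD and 3.89 and 6.91 in DKD. Its largest log2 difference was 0.58 for KDM5C-KD against TRIM11-KD (SE 0.42, interval -0.45 to 1.60, unadjusted p = 0.216).

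**Figure D2:**
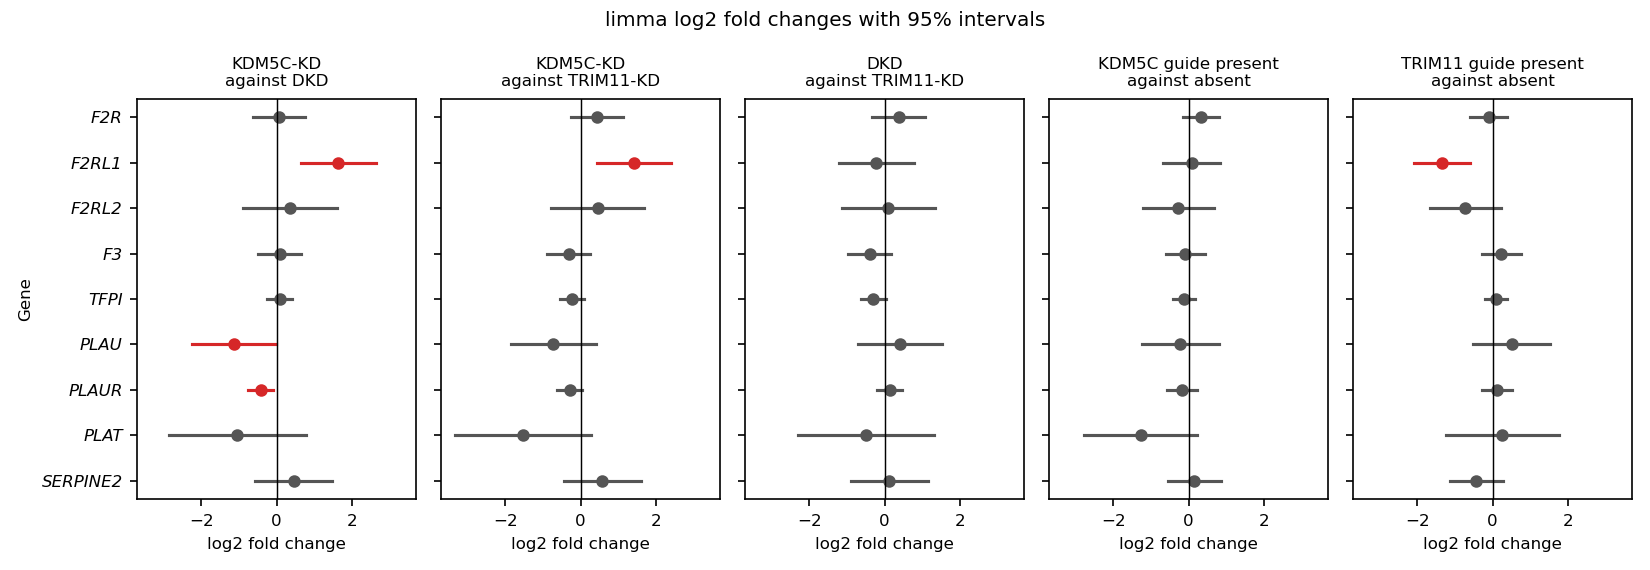
limma log2 fold changes (x axis) of the 9 genes (y axis) with 95% intervals in 5 comparisons, each titled first group against second, in red where the unadjusted p was under 0.05. F2RL1 is at 1.64, 1.42 and -1.34 in the 3 comparisons where it is red, and PLAU and PLAUR at -1.13 and -0.42.

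Over the 9 genes, unadjusted p was under 0.05 for 3 in KDM5C-KD against DKD (F2RL1, PLAU and PLAUR), where it was for 11.7% of all genes tested. Without KDM5C-KD2 there were 2 (F2RL1 and F3, beside 4.01% of all genes), and without DKD1 there was 1 (F2RL1). It was so for 1 in KDM5C-KD against TRIM11-KD (background 9.82%), 0 in DKD against TRIM11-KD (7.03%), 0 for the KDM5C guide (11.1%) and 1 for the TRIM11 guide (10.7%). After Benjamini-Hochberg adjustment over all genes no member passed 0.05 in any of the 5 comparisons, and among all genes 1 passed, for the KDM5C guide. Between 2 KDM5C-KD and 2 DKD libraries, 3 of the 9 did not overlap, beside 43.3% of all genes. For the KDM5C guide, 0 of 9 separated the 4 libraries with it from the 3 without, beside 10.7% of all genes. The median log2 fold change of the 9 was between -0.22 and 0.10 in the 5 comparisons, and that of all genes tested between -0.01 and 0.01.

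Against the single Control library, which the 3 comparisons share and for which there is no replicate, a gene was counted where the 2 lines of a knockdown lay above it, or below it, by 1.5-fold or more. In TRIM11-KD 1 of 9 was higher (F3, background 3.25%) and 2 were lower (F2RL1 and F2RL2, background 2.58%). In KDM5C-KD 0 were higher (background 5.22%) and 2 lower (PLAU at 0.646 and 0.301 of Control and PLAT at 0.354 and 0.0873, background 3.97%). In DKD 0 were higher (background 5.71%) and 3 lower (F2RL1, F2RL2 and PLAT, background 4.87%). F2RL1 was at 0.640 and 0.446 of Control in TRIM11-KD and at 0.519 and 0.403 in DKD. F2RL2 was at 0.547 and 0.158 in TRIM11-KD and at 0.260 and 0.455 in DKD. PLAT in DKD was at 0.499 and 0.275.

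**Figure D3:**
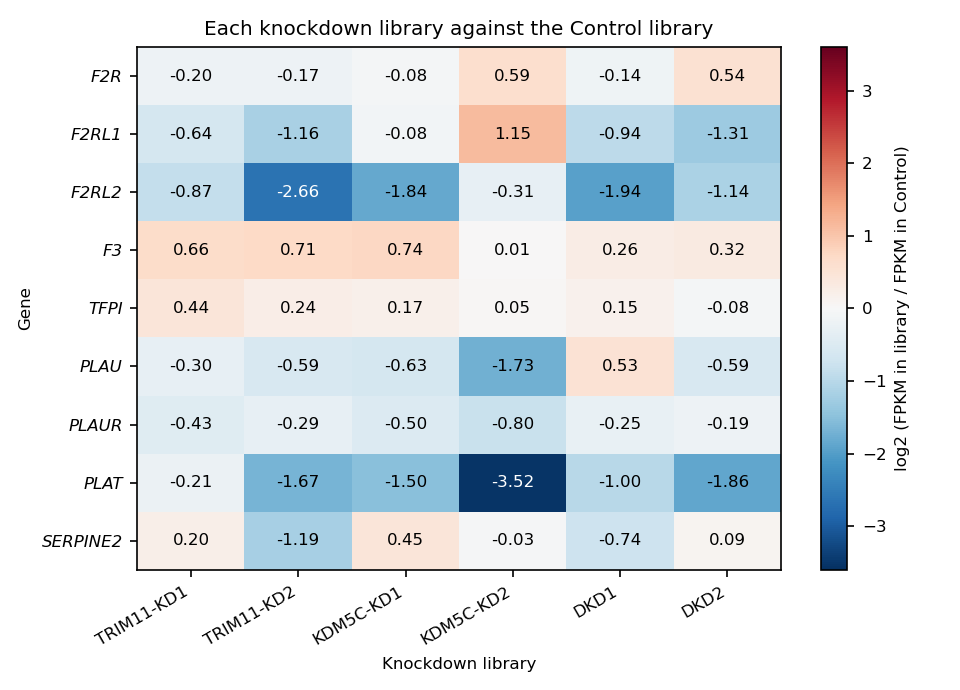
log2 of the ratio of FPKM in each knockdown library (x axis) to that in the Control library, for each gene (y axis), printed in each cell. F2RL1 is below 0 in the 4 libraries with a TRIM11 guide and at 1.15 in KDM5C-KD2, and PLAT is below 0 in all 6, down to -3.52.

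The proteases that cut the receptors were mostly silent in these cells. Of 21 listed, 20 were in the table and 4 passed the filter on low values. Thrombin (F2), factor VII (F7) and factor X (F10) were at most at 0.0340, 0 and 0.217 FPKM. PRSS3, a trypsin that can cut F2RL1, was at 21.0 FPKM in Control, 16.2 and 2.62 in TRIM11-KD, 13.6 and 14.5 in KDM5C-KD and 6.41 and 2.30 in DKD. Its TRIM11 guide effect was -1.55 (SE 0.52, unadjusted p = 0.02, limma adjusted p = 0.448), the 1 gene of 4 with an unadjusted p under 0.05 there, beside 10.7% of all genes. ST14 (matriptase) was at 2.74 and 3.77 FPKM in KDM5C-KD and lower in each of the other 5 libraries, with a log2 difference from DKD of 1.29 (SE 0.30, unadjusted p = 0.0048, adjusted p = 0.379). TMPRSS2 was at 2.46 FPKM in DKD1 and at most at 0.618 elsewhere. MMP1, a collagenase that can cut F2R, was named after its values were seen. It was at 14.9, 17.8, 43.2 and 34.1 FPKM in Control, KDM5C-KD1, TRIM11-KD1 and DKD1, and at 0.690, 0.0853 and 0.797 in TRIM11-KD2, KDM5C-KD2 and DKD2.

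Of the tissue factor pathway, 10 of 16 listed genes were tested. In KDM5C-KD against DKD 2 were higher and 2 lower at an unadjusted p under 0.05, beside 11.7% of all genes, with a median of -0.01, and 0 passed adjustment. TFPI2, a Kunitz inhibitor of plasmin and of the tissue factor complex, was at 13.6 FPKM in Control, 19.6 and 18.3 in TRIM11-KD, 14.9 and 5.85 in KDM5C-KD and 59.0 and 26.6 in DKD. Its difference of KDM5C-KD from DKD was -1.96 (SE 0.49, unadjusted p = 0.00659, limma adjusted p = 0.379), and its TRIM11 guide effect 1.36 (SE 0.44, unadjusted p = 0.0173, adjusted p = 0.448). SERPINA5, the protein C inhibitor, was at most at 0.543 FPKM outside DKD and at 1.04 and 1.66 in DKD. PROS1, the cofactor of protein C, was at 15.8 FPKM in KDM5C-KD2 and at 6.61 to 9.44 in the other 6 libraries.

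Of the plasminogen system, 15 of 21 listed genes were tested. In KDM5C-KD against DKD 2 were higher (LRP1 and VLDLR, which take up complexes of activators with inhibitors) and 3 lower (PLAU, PLAUR and SORL1) at an unadjusted p under 0.05, beside 11.7% of all genes, with a median log2 fold change of -0.035, and 0 passed adjustment. SORL1, a sorting receptor, was at 1.63 FPKM in Control, 0.801 and 1.03 in TRIM11-KD, 0.589 and 0.0607 in KDM5C-KD and 2.15 and 1.67 in DKD. Both KDM5C-KD libraries were thus below all the others. The log2 difference from DKD, on the scale of log2(FPKM + 1), was -1.16 (SE 0.25, unadjusted p = 0.00334, limma adjusted p = 0.379). PLG, the precursor of plasmin, was at most at 0.218 FPKM and SERPINB2 at most at 1.25.

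Of 21 genes that couple the receptors to the cell, 18 were tested, and their median log2 fold change was between -0.02 and 0.03 in the 5 limma comparisons. ARRB2, an arrestin that ends G protein signalling, was at 20.6 FPKM in Control, 14.2 and 15.0 in TRIM11-KD, 11.5 and 7.83 in KDM5C-KD and 11.7 and 10.4 in DKD. PLCB4, a phospholipase C, was at 0.259 to 0.944 FPKM in the 4 libraries with a KDM5C guide and at 1.80 to 1.87 in the 3 without. Their KDM5C guide effects were -0.64 (SE 0.18, unadjusted p = 0.0091) for ARRB2 and -0.84 (SE 0.18, unadjusted p = 0.00194) for PLCB4, both at a limma adjusted p of 0.383. PLCB3, at 15.9 to 29.5 FPKM, had a log2 difference between KDM5C-KD and DKD of -0.63 (SE 0.17, unadjusted p = 0.00981, limma adjusted p = 0.379).

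Of 17 genes known to be induced by receptor signalling, 16 were tested. By 1.5-fold in both lines, in KDM5C-KD against Control 1 was higher (background 5.22%) and 5 were lower (CXCL8, IL6, CXCL1, CCL2 and CSF2, secreted cytokines and chemokines, background 3.97%), and in DKD 2 were higher (background 5.71%) and 2 lower (background 4.87%). CCL2, a monocyte chemokine, was at 2.82 FPKM in Control, 2.32 and 23.1 in TRIM11-KD, 0.684 and 0 in KDM5C-KD and 112 and 34.2 in DKD. Its log2 difference of KDM5C-KD from DKD, on the scale of log2(FPKM + 1), was -5.60 (SE 0.98, unadjusted p = 0.00119, limma adjusted p = 0.379). CXCL8 was at 32.8 FPKM in Control, 54.4 and 42.0 in TRIM11-KD, 18.0 and 2.65 in KDM5C-KD and 110 and 14.4 in DKD, and CXCL1 at 0.0749 (KDM5C-KD2) to 37.5 (DKD1). DKD1 was the highest library for all 3 chemokines, as it was for PLAU, and KDM5C-KD2 was the lowest for all 3, as it was for PLAU, PLAUR and PLAT. Other genes of this list went another way. EGR1 was at 86.6 FPKM in Control, 49.6 and 157 in KDM5C-KD and 21.8 and 27.9 in DKD. FOS was also highest in KDM5C-KD2, at 136 FPKM, and at 57.9 and 86.2 in DKD. In KDM5C-KD against DKD, 1 of 16 was higher (EGR1) and 2 lower (CCL2 and IL6) at an unadjusted limma p under 0.05, beside 11.7% of all genes.

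**Figure D4:**
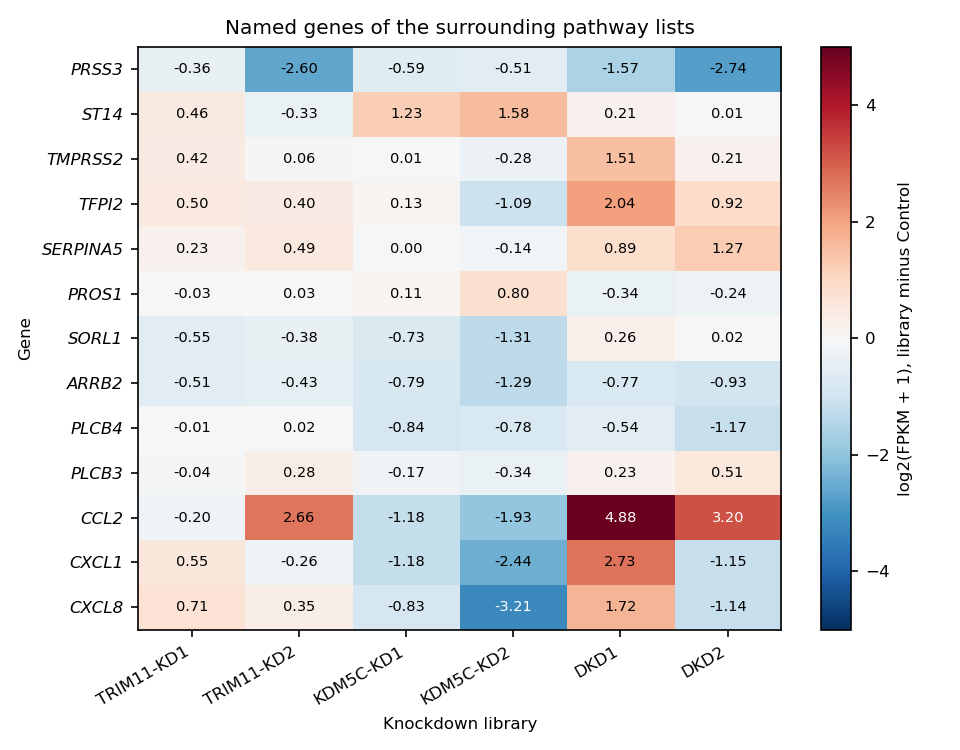
log2(FPKM + 1) in each knockdown library (x axis) minus that in Control, for the 13 named genes of the pathway lists that are not among the 9 (y axis), printed in each cell. CCL2 is at 4.88 in DKD1 and -1.93 in KDM5C-KD2, and PRSS3 is below 0 in all 6 libraries.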

How the data were processed

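RNA-Seq of 7 MDA-MB-231 libraries was analysed. Mouse tumor data were not analysed here. Per the study's methods, the authors prepared poly(A), non-directional, paired 150 bp libraries, mapped reads with HISAT2 2.1.0 to hg19 and computed FPKM with Cufflinks at default parameters, whose version and annotation are not given in the sources used here. The deposited FPKM table has 26006 rows, of which the row with the highest mean was kept for each symbol, and 25 symbols turned into dates were dropped. Tests were run on log2(FPKM + 1) with limma 3.58.1 (lmFit, eBayes with a trend) in R 4.3.3, over genes whose mean FPKM reached 0.5, with Benjamini-Hochberg adjustment over all of them. A log2 fold change on this scale understates the change of low genes. Pairwise comparisons used the 6 knockdown libraries, and guide effects all 7, with both guides as terms and no interaction assumed. The fits were tested on simulated data with known changes and independent noise for each library, without the shared guides of the real lines. Comparisons with the single Control library were counted by fold, with no test, and limma over all 7 libraries, in which Control was assumed to vary like the other groups, was an alternative. Relative depth came from ratios of low FPKM values, of which 80.1% to 86.6% were within 1% of a ratio of whole numbers. The total of Control, 18200000 fragments, is approximate (15 of 40 long genes within 3%). Python 3.11.15 with pandas 2.3.3, scipy 1.17.1 and matplotlib 3.10.9 was used for the rest. Positions come from GENCODE on hg19.

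The members and gene lists were chosen with earlier results of these data known, and the lists were written from general knowledge. Apart from the 9 genes and the 2 targets, the text names 3 genes of each list, those with the largest range among genes with an unadjusted p under 0.05 or a change in both lines, F2RL3, SERPINB2, PLG, F2, F7, F10 and TFPI2 whatever their values, and for each receptor the 3 most correlated genes. The remaining names were chosen after their values were seen. 1 further listed gene is not reported here. The limma p-values set a group difference against the spread between lines. That spread holds differences between guides and cultures, and may be technical in part. Alternatives were other pseudocounts, filters, scalings and folds, eBayes without a trend, other sets of libraries, the replicate number as a block and each library left out in turn.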

Additional observations from a re-analysis of the deposited data

Results flagged for a closer look

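F2R in the 4 libraries with a TRIM11 guide was flagged because DKD2, at 49.1 FPKM, stood apart from the other 3 at 29.5 to 30.6. On the log2 scale the gap was 0.928 of the whole range, above the 95% critical value of Dixon's test for 4 samples. This was 1 of 18 such groups looked at, and chance flags about 1 in 20. KDM5C-KD2 was as high, at 51.0 FPKM.

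PLAUR was flagged because the effect of the KDM5C guide differed with and without a TRIM11 guide. The interaction, tested in limma after the data were seen, was 0.77 on the log2 scale (0.772, SE 0.22, unadjusted p = 0.0112), with an adjusted p of 0.879 over all genes. It was the 1 member of 9 with an unadjusted p under 0.05 for the interaction, beside 5.49% of all genes.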

How the results depend on the processing

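The count of the 9 genes with an unadjusted p under 0.05, or past 1.5-fold in both lines, stayed within 1.5 times its value under 74 of 94 alternatives. These include the removal of the filter in the comparisons with Control, which could not change the count. With each library left out in turn it was 1 to 4 in KDM5C-KD against DKD, 1 to 5 in KDM5C-KD against TRIM11-KD, 0 to 2 in DKD against TRIM11-KD, 0 to 1 for the KDM5C guide, 1 to 3 for the TRIM11 guide, and 3 to 6, 4 to 5 and 4 in TRIM11-KD, KDM5C-KD and DKD against Control. Beside these, the share of all genes was 5.85% to 11.7% for the KDM5C guide and 5.80% to 13.1% for the TRIM11 guide. The highest counts in KDM5C-KD against TRIM11-KD and against Control came without KDM5C-KD1, and the highest in TRIM11-KD against Control without TRIM11-KD1. In KDM5C-KD against TRIM11-KD the share of all genes was also highest without KDM5C-KD1, so that count is not read as a result about the 9 genes. Against Control, leaving out a line asks for 1 line past 1.5-fold, so the count could only stay or rise. For the TRIM11 guide the count was 3 without the Control library, beside 11.7% of all genes. Without Control, the fit of the TRIM11 guide is the same as that of KDM5C-KD against DKD with the sign turned. The fit of the KDM5C guide is then the same as that of DKD against TRIM11-KD, so neither is a separate check. In DKD against TRIM11-KD the count was 1 (F3) in a fit of those groups alone, beside 7.66% of all genes. At 2-fold, 0 genes passed in TRIM11-KD and 1 (PLAT) in KDM5C-KD, and the mean of the 2 KDM5C-KD lines gave 5. In limma over all 7 libraries, the log2 differences of the 9 genes from the 1 Control library were -2.46 (PLAT) to 0.53 (F2RL1) in KDM5C-KD. PLAUR was at -0.64 there. They were -1.28 (F2RL2) to 0.69 (F3) in TRIM11-KD and -1.42 (PLAT) to 0.29 (F3) in DKD.

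With the replicate number as a block the counts were 4 (KDM5C-KD against DKD), 4 (against TRIM11-KD, with PLAT, PLAU and TFPI added) and 1 (DKD against TRIM11-KD, TFPI). The shares of all genes rose as well, to 17.1%, 15.6% and 12.2% in that order. Number 1 or 2 is the TRIM11 guide in both TRIM11-KD and DKD, so it pairs these lines, whose line differences correlate at 0.371. The main fit of DKD against TRIM11-KD did not use this pairing. In KDM5C-KD the number is that of another guide, and its line differences correlate at 0.088 with TRIM11-KD and 0.273 with DKD. The unadjusted p of F2RL1 stayed under 0.05 in KDM5C-KD against DKD and for the TRIM11 guide under all alternatives, with adjusted p-values of 0.0929 to 0.913 and 0.259 to 0.813. Against TRIM11-KD it was 0.0735 without TRIM11-KD2 (adjusted p 0.117 to 1 over the alternatives). The unadjusted limma p of PLAU in KDM5C-KD against DKD rose above 0.05 under 7 alternatives, among them scaling by median ratios (0.0503) and no filter (0.0856). No alternative gave any of the 9 an adjusted p under 0.05. With 2 lines a group, 1 Control library and FPKM without exact counts, smaller differences could not be resolved, and leaving out 1 of 2 lines assumes that the other varies like the other groups.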
